A study of Brachypodium distachyon with 89 samples.

Results

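Bradi1g60490 and Bradi1g72390 are the 2 of 24467 Brachypodium distachyon genes in the deposited table whose best Arabidopsis match carries the symbol COR27. They are all the genes with that annotation, and their unlike time courses were known when they were taken up; both passed the filter on low values (at least 1 CPM in 3 libraries), and 0 other genes of the table had COR27 or its sister gene COR28 as best match. The study collected the aboveground green tissue of 2 natural accessions, Bd21, which it treats as submergence-sensitive, and Bd21-3, which it treats as tolerant, under 3 treatments at 5 Zeitgeber times (ZT, hours after lights on): ZT0 and ZT24 at dawn, ZT8 at midday, ZT16 at dusk and ZT20 at midnight. Plants were 14 days old and grown in days of 16 h light and 8 h dark. Submerged plants (S) stood under 30 cm of water at 70 μE m−2 s−1, starting in the light period before the first dawn. Low light controls (LL) stood in dry tanks beside them at the same light level, and normal growth controls (NG) stayed at 150 μE m−2 s−1. Pools of 5 plants gave 1 library each, with 3 libraries for every ecotype, treatment and time except LL Bd21 at ZT24, which had 2, so that 89 libraries fell into 30 groups. Plants of one time point shared a tank, so treatment and tank cannot be told apart. Later times also meant longer submergence, so time of day and length of submergence were not varied apart.

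In Arabidopsis, COR27 (COLD-REGULATED GENE 27) is induced by cold and is an output of the circadian clock, with transcripts that accumulate late in the day because the morning factors CCA1 and LHY repress it. COR27 and COR28 act back on the clock by repressing TOC1 and PRR5, evening and afternoon components, and they meet light signaling through the COP1 ubiquitin ligase, phytochrome B and the growth regulator HY5. Plants that lack both flower late and tolerate freezing better. These roles come from Arabidopsis, and none was tested in Brachypodium here.

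Levels are given as CPM, the read counts scaled to library size as deposited. The libraries held 3896851 to 16044727 reads, and these gave 19 to 370 reads for Bradi1g60490 and 6 to 1583 reads for Bradi1g72390. The lowest library of Bradi1g72390, at 6 reads and 0.683 CPM, had an exact Poisson 95% interval of 0.251 to 1.49 CPM, which covers counting error only. CPM are not corrected for gene length, so the 2 genes are compared by how they changed and never by level. Differences are log2 fold changes (log2FC) of CPM + 1 from limma with their standard error (SE), and a gene is called up- or down-regulated where the change was at least 1.5, the Benjamini-Hochberg adjusted p over 24109 genes was below 5e-06 and 1 of the 2 groups averaged at least 15 CPM. The tissue label was checked against 7 genes matched to photosynthesis markers (RBCS1A and CAB1), which summed to 808 to 12476 CPM in S libraries (median 3881), against 10405 to 28572 CPM in LL (median 18133) and 16888 to 42029 CPM in NG (median 28534). The 3 root marker genes with a match, of PIN2 and NRT2.1, summed to 0.582 to 12.4 CPM in S, 3.61 to 11.0 CPM in LL and 4.80 to 12.4 CPM in NG. The photosynthesis markers thus moved with submergence beside every S over LL result below, and their part in the COR27 results was not tested. In bulk tissue, fewer cells of a type and less RNA per cell cannot be told apart.

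Submerged plants had the zenith of Bradi1g60490 at the first dawn, with higher means than LL at midday and lower ones from dusk to the second dawn. The S libraries of Bd21 read 28.7, 19.0 and 30.4 CPM at ZT0, 13.0, 11.9 and 11.4 CPM at ZT8, 3.33, 5.65 and 5.09 CPM at ZT16, 4.00, 6.72 and 7.05 CPM at ZT20, and 9.84, 6.95 and 12.4 CPM at ZT24. Those of Bd21-3 read 21.9, 20.4 and 17.9 CPM at ZT0, 13.2, 13.0 and 14.2 CPM at ZT8, 4.48, 6.07 and 5.09 CPM at ZT16, 4.95, 4.74 and 7.07 CPM at ZT20, and 6.03, 5.51 and 5.59 CPM at ZT24. The lowest S mean thus lay at dusk, against midday in the controls. Its libraries overlapped those of ZT20 in both ecotypes and those of ZT24 in Bd21-3, so this nadir was not set apart from them. No step of the night that followed could be called, because no S mean from ZT16 on reached 15 CPM. The ZT20 over ZT16 log2FC was 0.27 (SE 0.18) in Bd21 and 0.08 (SE 0.18) in Bd21-3. For ZT24 over ZT20 it was 0.63 (SE 0.18, adjusted p = 0.027, limma) in Bd21 and 0.04 (SE 0.18) in Bd21-3. The ZT24 over ZT0 log2FC in S was −1.34 (SE 0.18, adjusted p = 1.3e-09, limma) in Bd21, short of the size limit, and −1.64 (SE 0.18, adjusted p = 1.9e-12, limma) in Bd21-3, a call. The Bd21-3 call was lost with quantile normalization (−1.35) and with a pseudocount of 5 CPM (−1.22), and the Bd21 value became one without S ZT0 replicate 2 (−1.54) or S ZT24 replicate 3 (−1.52). The same interval in LL gave 0.84 (SE 0.20) in Bd21 and 0.83 (SE 0.18) in Bd21-3, with the second dawn higher and neither called.

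In the control plants Bradi1g60490 was low at midday and higher from dusk through the night to dawn. In LL Bd21 the libraries read 14.5, 16.0 and 14.1 CPM at ZT0, 3.13, 2.59 and 3.64 CPM at ZT8, 15.9, 18.6 and 25.6 CPM at ZT16, 27.9, 20.6 and 26.8 CPM at ZT20, and 27.4 and 27.6 CPM at ZT24. In LL Bd21-3 they read 17.5, 10.9 and 13.6 CPM at ZT0, 3.19, 3.15 and 2.76 CPM at ZT8, 21.28, 17.89 and 17.42 CPM at ZT16, 25.2, 22.4 and 24.4 CPM at ZT20, and 24.4, 24.2 and 27.2 CPM at ZT24. Midday was the nadir in both ecotypes, and the highest and lowest group means of the LL day stood 8.81-fold apart in Bd21 and 8.34-fold apart in Bd21-3. The NG plants kept the midday nadir, at 2.33 ± 0.0458 CPM in Bd21 and 3.06 ± 0.588 CPM in Bd21-3 (SD, n = 3 each). The NG zenith fell at ZT20 in Bd21, with 21.6 ± 0.807 CPM, and at ZT24 in Bd21-3, with 22.4 ± 2.21 CPM (SD, n = 3 each), where the libraries overlapped those of ZT20.

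**Figure D1:**
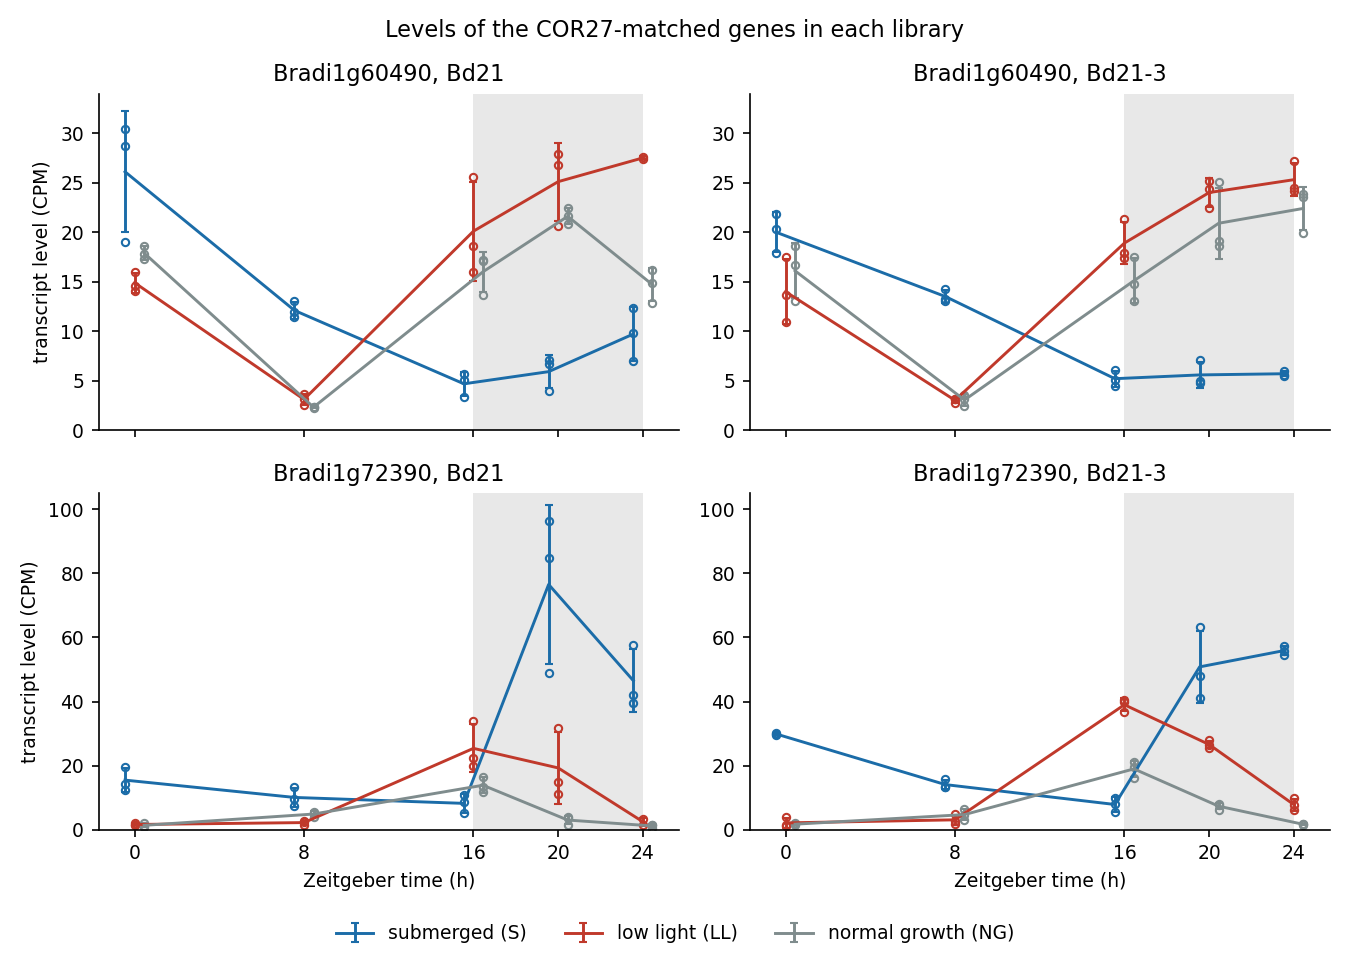
Transcript levels in CPM (linear axes) against Zeitgeber time in hours for Bradi1g60490 (top) and Bradi1g72390 (bottom) in Bd21 (left) and Bd21-3 (right). Circles are libraries, lines join group means and bars are SD (n = 3, but 2 for LL Bd21 at ZT24). Grey marks the dark hours. The treatments are set slightly apart along the time axis. Submerged Bradi1g60490 stayed at 3.33 to 12.4 CPM from ZT16 on, and submerged Bradi1g72390 reached 39.6 to 96.2 CPM at ZT20 and ZT24.

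Against LL at the same time, Bradi1g60490 was down-regulated in 5 of 10 comparisons and up-regulated in 0. Over the 10 comparisons together 4.27% of all genes tested were called lower and 3.34% higher. In the 5 comparisons with a call, the share of genes called lower was 3.93% (ZT16) and 4.39% (ZT20) in Bd21 and 4.67% (ZT16), 5.54% (ZT20) and 4.71% (ZT24) in Bd21-3. At ZT16 the mean was 4.69 ± 1.21 CPM in S and 20.1 ± 4.99 CPM in LL Bd21 (log2FC −1.89, SE 0.18, adjusted p = 1.4e-14, limma), and 5.21 ± 0.803 CPM in S and 18.9 ± 2.11 CPM in LL Bd21-3 (SD, n = 3 each; log2FC −1.68, SE 0.18, adjusted p = 8.4e-13, limma). At ZT20 the S level was lower by a like amount, with a log2FC of −1.93 (SE 0.18) in Bd21 and −1.94 (SE 0.18) in Bd21-3. At ZT24 it was −1.97 (SE 0.18, adjusted p = 2.2e-15, limma) in Bd21-3, which was called, and −1.44 (SE 0.20, adjusted p = 4.9e-09, limma) in Bd21, which fell just short of the size limit and reached −1.5 in edgeR on whole reads. At midday the sign was opposite: 12.1 ± 0.824 CPM in S and 3.12 ± 0.526 CPM in LL Bd21, and 13.5 ± 0.641 CPM in S and 3.03 ± 0.239 CPM in LL Bd21-3 (SD, n = 3 each). Those midday log2FC were 1.68 and 1.85 (SE 0.18 each, adjusted p = 1.3e-12 and 2.7e-14, limma), past both limits but uncalled because no group averaged 15 CPM. The S and LL libraries did not overlap at any of the 10 comparisons, as was so of 56.5% of all gene and comparison pairs tested. An F test of whether the S over LL log2FC changed between ZTs was called in both ecotypes (adjusted p = 7.4e-23 in Bd21 and 9.2e-24 in Bd21-3, limma), as for 14.5% of genes tested in each.

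Bradi1g72390 peaked in the second night in submerged plants, later and higher than in the controls, and it was present at both dawns at levels the controls did not have. The S libraries of Bd21 read 14.4, 19.7 and 12.4 CPM at ZT0, 7.36, 9.70 and 13.2 CPM at ZT8, 5.17, 8.65 and 10.9 CPM at ZT16, 48.7, 84.6 and 96.2 CPM at ZT20, and 42.2, 39.6 and 57.6 CPM at ZT24. Those of Bd21-3 read 29.9, 29.4 and 30.2 CPM at ZT0, 13.3, 13.3 and 15.8 CPM at ZT8, 10.1, 5.45 and 8.18 CPM at ZT16, 41.2, 48.0 and 63.2 CPM at ZT20, and 54.6, 57.4 and 55.7 CPM at ZT24. Dusk, the zenith of the controls, had the lowest mean of the submerged plants in both ecotypes. In Bd21 its libraries overlapped those of midday (ZT16 over ZT8 −0.28, SE 0.29), so that nadir was not set apart from ZT8. From dusk to midnight the log2FC was 3.06 (SE 0.29, adjusted p = 3.6e-13, limma) in Bd21 and 2.55 (SE 0.29, adjusted p = 5.3e-10, limma) in Bd21-3, both called. Midnight and the second dawn overlapped in both ecotypes, so the S zenith was not set more finely than these 2 times.

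In the control plants Bradi1g72390 was a dusk transcript. The LL libraries of Bd21 read 1.98, 1.44 and 1.57 CPM at ZT0, 2.83, 1.58 and 2.36 CPM at ZT8, 20.01, 22.28 and 33.93 CPM at ZT16, 14.9, 31.8 and 11.0 CPM at ZT20, and 1.60 and 3.45 CPM at ZT24. Those of LL Bd21-3 read 3.87, 1.07 and 1.54 CPM at ZT0, 4.79, 1.83 and 2.76 CPM at ZT8, 40.6, 39.7 and 36.7 CPM at ZT16, 27.9, 26.3 and 25.5 CPM at ZT20, and 7.62, 9.85 and 6.10 CPM at ZT24. Dusk held the LL zenith, overlapping midnight in Bd21 and clear of it in Bd21-3, and the ZT16 over ZT8 step was up-regulated in both ecotypes (log2FC 3.00 in Bd21 and 3.34 in Bd21-3, SE 0.29 each). In NG the zenith was at ZT16 too, at 13.9 ± 2.42 CPM in Bd21 and 19.0 ± 2.44 CPM in Bd21-3 (SD, n = 3 each), and no library of another NG time overlapped it.

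Against LL, Bradi1g72390 was up-regulated in 5 of 10 comparisons and down-regulated in 1. In the comparisons where it was up-regulated, the share of genes called higher was 3.38% (ZT0), 2.63% (ZT20) and 2.6% (ZT24) in Bd21 and 4.24% (ZT0) and 2.84% (ZT24) in Bd21-3. The widest gap was at ZT24 in Bd21, at 46.5 ± 9.73 CPM in S (n = 3) and 2.52 ± 1.31 CPM in LL (SD, n = 2), with 18.4-fold between the means (log2FC 3.78, SE 0.32, adjusted p = 4.7e-16, limma). At the same time Bd21-3 averaged 55.9 ± 1.4 CPM in S and 7.86 ± 1.88 CPM in LL (SD, n = 3 each; log2FC 2.71, SE 0.29). At ZT0 the mean was 15.5 ± 3.76 CPM in S and 1.66 ± 0.284 CPM in LL Bd21, and 29.9 ± 0.415 CPM in S and 2.16 ± 1.5 CPM in LL Bd21-3 (SD, n = 3 each), with log2FC of 2.61 and 3.39 (SE 0.29 each). The Bd21 call at ZT0 rested on a mean just over 15 CPM and was lost without S replicate 2, at a log2FC of 2.44. At ZT20 the log2FC was 2.01 (SE 0.29, adjusted p = 1.5e-08, limma) in Bd21, which was called but not without LL replicate 3 (1.71), and 0.89 (SE 0.29, adjusted p = 0.0065, limma) in Bd21-3, which was not. Dusk ran the other way, at 7.90 ± 2.32 CPM in S and 39.0 ± 2.05 CPM in LL Bd21-3 (SD, n = 3 each; log2FC −2.20, SE 0.29, adjusted p = 1.1e-09, limma), a call. In Bd21 the dusk log2FC of −1.53 (SE 0.29) had an adjusted p of 6.5e-06 in limma, just outside the limit.

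At midday Bradi1g72390 averaged 10.1 ± 2.96 CPM in S and 2.26 ± 0.633 CPM in LL Bd21, and 14.1 ± 1.45 CPM in S and 3.12 ± 1.51 CPM in LL Bd21-3 (SD, n = 3 each). The log2FC of 1.75 and 1.93 (SE 0.29 each) were uncalled because no mean reached 15 CPM, as for the other gene at that time. Here too S and LL did not overlap at any of the 10 comparisons, beside 56.5% of all gene and comparison pairs. The F test called a change of the S over LL log2FC between ZTs for 14.5% of genes tested in each ecotype. The log2FC of Bradi1g72390 was among those called in Bd21 (adjusted p = 5.3e-16, limma) and in Bd21-3 (adjusted p = 2.0e-18, limma). Its lowest and highest values lay 5.31 apart on the log2 scale in Bd21 and 5.59 apart in Bd21-3, against 3.61 and 3.82 for Bradi1g60490.

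**Figure D2:**
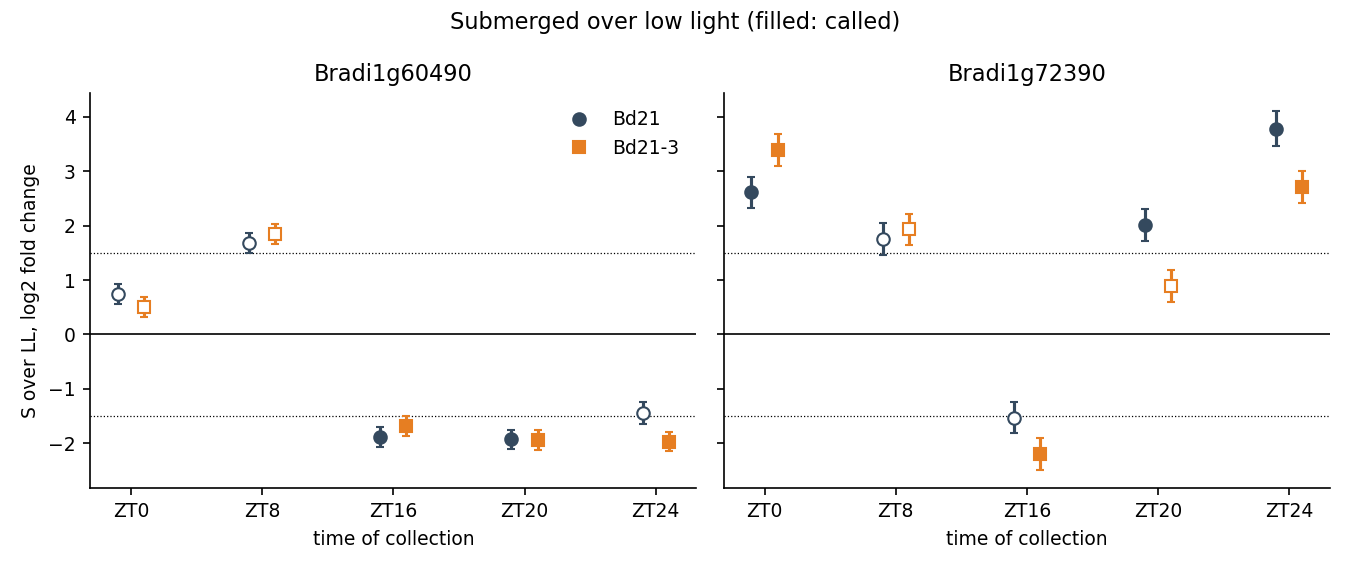
S over LL log2 fold change of CPM + 1 (vertical axis) at each time of collection (horizontal axis) for Bradi1g60490 (left) and Bradi1g72390 (right); circles are Bd21, squares Bd21-3, bars SE and filled symbols calls. Dotted lines mark the size limit of 1.5. Both genes were above 0 at ZT0 and ZT8 and below 0 at ZT16, and at ZT20 and ZT24 Bradi1g60490 was at −1.97 to −1.44 while Bradi1g72390 was at 0.89 to 3.78.

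The comparison of LL with NG asks what shading and the move to a tank did without water. Bradi1g72390 was up-regulated by LL at midnight in both ecotypes, and Bradi1g60490 was called at 0 of 10 comparisons (limma; 1 had an unadjusted p under 0.05, and edgeR called 0, with 3 under 0.05). For Bradi1g60490 at ZT8 neither group averaged 15 CPM, so a call was not possible there. Over the 10 LL over NG comparisons 0.396% of genes tested were called higher and 0.407% lower, and at ZT20 the share higher was 0.419% in Bd21 and 0.361% in Bd21-3. At ZT20 Bradi1g72390 read 14.9, 31.8 and 11.0 CPM in LL and 3.68, 3.87 and 1.60 CPM in NG Bd21, without overlap, as for 41.8% of all gene and comparison pairs (log2FC 2.24, SE 0.29, adjusted p = 6.1e-09, limma). In Bd21-3 it read 27.9, 26.3 and 25.5 CPM in LL and 8.05, 7.74 and 6.34 CPM in NG (log2FC 1.72, SE 0.29, adjusted p = 2.7e-06, limma). That second call was lost whenever any 1 of its 6 libraries was left out, while the log2FC stayed between 1.63 and 1.78; the first was lost without LL replicate 2 (1.83). At ZT24 in Bd21-3 the log2FC was 1.69 (SE 0.29), with both means under 15 CPM. With NG in place of LL as the control, which uses the same S libraries, the S log2FC of Bradi1g72390 at ZT20 was 4.26 in Bd21 and 2.61 in Bd21-3 (SE 0.29 each), both called. Against NG it was up-regulated at ZT0, ZT20 and ZT24 in both ecotypes, 6 of 10 comparisons, and Bradi1g60490 was down-regulated in 4 of 10, where 4.47% of genes were called higher and 6.7% lower over the 10. For Bradi1g60490 at ZT24 in Bd21 it was −0.57 (SE 0.18) against NG and −1.44 against LL, neither called. The dusk calls in Bd21-3 were lost against NG, at −1.37 for Bradi1g60490 and −1.20 for Bradi1g72390.

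No difference between the ecotypes was called. Of 15 Bd21 over Bd21-3 comparisons (3 treatments by 5 times), 0 were called for each gene in limma and in edgeR, where 0.547% of genes tested were called higher and 0.191% lower by limma. A call was not possible where neither group averaged 15 CPM, whatever the size of the difference. This was so for Bradi1g60490 in S from ZT8 to ZT24 and for Bradi1g72390 in LL at ZT0, ZT8 and ZT24, among others. It covers the largest difference of each gene given below. The libraries of the ecotypes did not overlap in 5 of 15 for each gene, beside 27.6% of all gene and comparison pairs. Unadjusted p under 0.05 occurred in 2 (Bradi1g60490, both tools) and in 5 by limma and 4 by edgeR (Bradi1g72390). The largest for Bradi1g60490 was 0.64 (95% CI 0.30 to 0.99, adjusted p = 0.0049, limma) in S at ZT24, at 9.84, 6.95 and 12.4 CPM in Bd21 and 6.03, 5.51 and 5.59 CPM in Bd21-3. For Bradi1g72390 the largest was −1.36 (95% CI −2.0 to −0.72, adjusted p = 0.0022, limma) in LL at ZT24, at 2.52 ± 1.31 CPM in Bd21 (n = 2) and 7.86 ± 1.88 CPM in Bd21-3 (SD, n = 3). At the first dawn of submergence it was also lower in Bd21 than in Bd21-3, with no overlap, at −0.93 (95% CI −1.5 to −0.36, adjusted p = 0.020, limma). The test of an ecotype difference in the S over LL change itself called 0 of 5 times for each gene in limma and in edgeR, with unadjusted p under 0.05 at 1 time for Bradi1g60490 and at 2 times for Bradi1g72390 by both tools. Over the 5 times 0.131% of genes tested were called with a higher and 0.0838% with a lower change in Bd21. Its widest value was 1.13 for Bradi1g72390 at ZT20 (95% CI 0.32 to 1.94, adjusted p = 0.11, limma), where the LL libraries of Bd21 spread from 11.0 to 31.8 CPM.

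Ordered by mean over all 30 groups, the levels of each gene formed a nearly unbroken slope. Sorting brings neighbours close by construction. The overlaps were not counted over all genes, so they describe the order only. For Bradi1g60490 the order ran from LL Bd21 at ZT24 (27.5 CPM) to NG Bd21 at ZT8 (2.33 CPM), and the libraries of neighbouring groups overlapped in 27 of 29 steps. The 8 groups at the bottom below S Bd21 at ZT20 were the other S groups of ZT16, ZT20 and ZT24 from Bd21-3, S Bd21 at ZT16 and the 4 midday control groups. For Bradi1g72390 the 4 S groups of ZT20 and ZT24 led the order with 46.5 to 76.5 CPM, followed by LL Bd21-3 at ZT16 (39.0 CPM), and NG Bd21 at ZT24 closed it (1.22 CPM). Here 26 of 29 neighbouring pairs overlapped, and S Bd21-3 at ZT0 (29.4 to 30.2 CPM) stood clear of the groups on either side. F tests called a change between ZTs for both genes in all 6 combinations of ecotype and treatment, where 16.5% (S), 3.02% (LL) and 2.19% (NG) of genes tested were called in Bd21 and 14.6% (S), 3.23% (LL) and 2.5% (NG) in Bd21-3. Of 30 steps between neighbouring times and between the 2 dawns, 4 were called higher at the later time and 3 lower for Bradi1g60490, and 5 higher and 1 lower for Bradi1g72390, beside 0.363% higher and 0.52% lower over all genes.

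The difference between the 2 genes was highest, in favor of Bradi1g72390, in the second night of submergence. Within each library the log2 CPM + 1 of Bradi1g72390 minus that of Bradi1g60490 was taken; only its changes between groups can be read, since the genes' lengths were not used. In S it was −0.71 ± 0.67 in Bd21 and 0.56 ± 0.15 in Bd21-3 at ZT0, and at ZT20 it stood at 3.46 ± 0.14 in Bd21 and 2.97 ± 0.13 in Bd21-3 (SD, n = 3 each). At ZT24 it was still 2.16 ± 0.18 in S Bd21 and 3.09 ± 0.09 in S Bd21-3 (SD, n = 3 each). In LL the difference was −2.58 ± 0.21 in Bd21 and −2.32 ± 0.35 in Bd21-3 at ZT0, and 0.32 ± 0.07 in Bd21 and 1.01 ± 0.11 in Bd21-3 at ZT16 (SD, n = 3 each). By ZT24 it was back at −3.07 ± 0.54 in LL Bd21 (n = 2) and −1.59 ± 0.39 in LL Bd21-3 (SD, n = 3). In NG it was −3.01 ± 0.36 in Bd21 and −2.62 ± 0.20 in Bd21-3 at ZT0, 0.82 ± 0.26 in Bd21 and 0.47 ± 0.22 in Bd21-3 at midday, and −2.84 ± 0.36 in Bd21 and −3.11 ± 0.07 in Bd21-3 at ZT24 (SD, n = 3 each). These sizes depend on the pseudocount: at LL ZT0 they were −2.99 in Bd21 and −2.71 in Bd21-3 with 0.25 CPM, and −1.58 in Bd21 and −1.41 in Bd21-3 with 5 CPM. No library of the 4 S groups of ZT20 and ZT24, at 1 CPM, lay below 1.99 or above 3.59, and no library of another group reached that range, the next highest being 1.11 in LL Bd21-3 at ZT16. Over the 30 group means the genes' levels had a Pearson r of −0.025, and over the 20 LL and NG groups 0.249. These are descriptions of groups that share ecotypes, times and libraries, and the difference between the genes was not put to a test because the genes' unlike time courses were known beforehand.

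**Figure D3:**
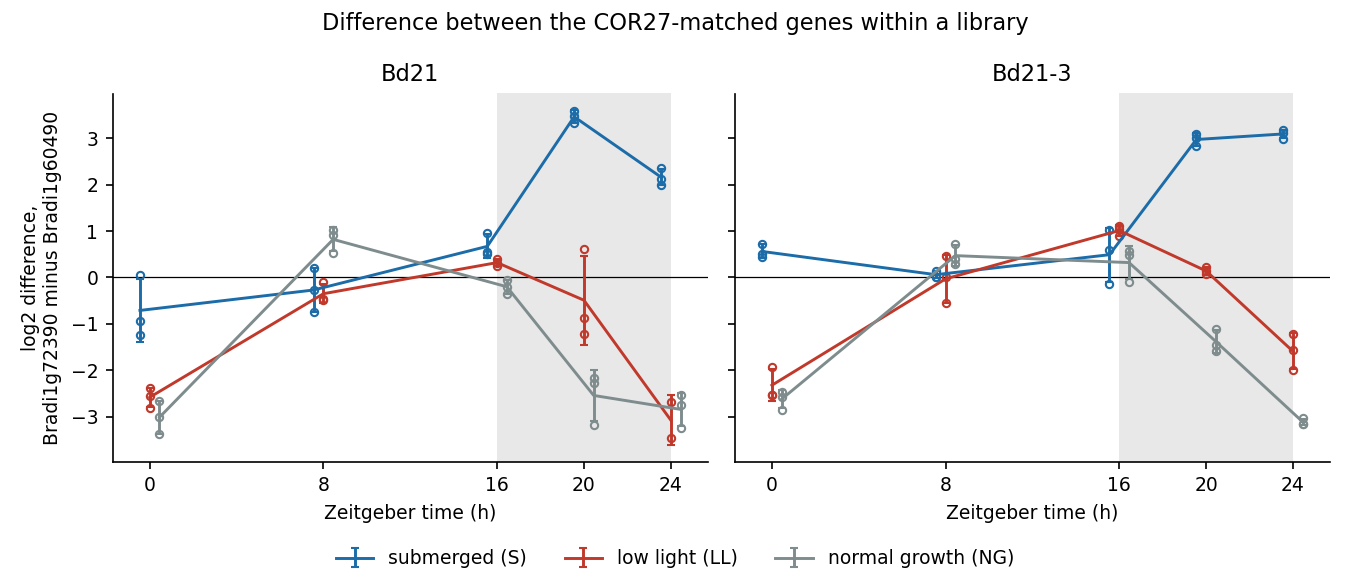
Within-library difference of log2 (CPM + 1), Bradi1g72390 minus Bradi1g60490 (vertical axis), against Zeitgeber time in hours in Bd21 (left) and Bd21-3 (right). Circles are libraries, lines join group means, bars are SD and grey marks the dark hours. The S groups of ZT20 and ZT24 lie at 1.99 to 3.59, above the LL and NG libraries.

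Likeness to Bradi1g72390 was measured over the 30 group means, which share libraries and times. Among genes that had a symbol and reached 15 CPM in the mean of 1 group or more, the 5 highest Pearson r belonged to matches of TOC1 (Bradi3g48880, 0.863), the evening repressor of the Arabidopsis clock, FKF1 (Bradi4g16630, 0.852), a blue light receptor of the flowering pathway, PP2-B10 (Bradi3g17208, 0.842), NIK2 (Bradi2g34314, 0.813), a receptor-like kinase, and PRR5 (Bradi4g24967, 0.812). Counting genes without a symbol, they stood at places 2, 3, 6, 10 and 11. TOC1 too had its highest mean at ZT20 in S Bd21 and at ZT16 in LL Bd21. Its means ran 40.8, 31.6, 32.5, 88.0 and 78.0 CPM over the 5 times in S Bd21, against 18.7, 33.0, 90.1, 62.5 and 28.5 CPM in LL Bd21. FKF1 ran 98.3, 29.2, 36.0, 166.7 and 89.7 CPM in S Bd21, against 1.5, 26.1, 50.5, 15.4 and 2.52 CPM in LL Bd21. In S Bd21-3, however, FKF1 had its highest mean at ZT0 (181.4 CPM), beside 177.7 CPM at ZT20. In NG its zenith was at ZT8 in Bd21 (51.7 CPM) and at ZT16 in Bd21-3 (53.6 CPM). Over the 20 LL and NG groups alone TOC1 again came first (0.938) and was the 1 of the 5 that stayed among the first 5.

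For Bradi1g60490, among genes with a symbol, the 5 highest r were those of matches of EHD1 (Bradi2g22870, 0.871), an endocytosis protein, EDM2 (Bradi3g22461, 0.824), a chromatin regulator of disease resistance genes, TRFL2 (Bradi1g66677, 0.796), a telomere-binding-like protein, RRA2 (Bradi1g23050, 0.796), an arabinosyltransferase, and GCP1 (Bradi2g11360, 0.795), a glycoprotease, which stood at places 3 to 7 among all genes. EHD1 followed its order closely: means were 23.7, 12.9, 9.07, 7.08 and 11.6 CPM over the 5 times in S Bd21, against 15.2, 9.83, 17.1, 21.1 and 23.1 CPM in LL Bd21. None of these 5 was called in any S over LL comparison. Over the 20 control groups 1 of the 5 (RRA2, 0.923) remained among the first 5, which were then led by a match of ACS10 (0.969) and of the morning factor RVE1 (0.926).

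Of the clock list, 25 genes were tested; 15 were up-regulated and 12 down-regulated in at least 1 of 10 S over LL comparisons, 10 of them both, and 8 were never called. Of all genes tested, 9.12% were up-regulated and 11.2% down-regulated at least once, 0.34% both, and 80.0% were never called. Per comparison 2 to 7 were higher and 0 to 6 lower, and the list's median log2FC lay between −0.29 and 0.61, beside −0.12 to 0.02 for all genes. LHY (Bradi3g16515), the morning repressor, was down-regulated at both dawns, at 47.4 ± 16.1 CPM in S and 3418 ± 303.3 CPM in LL Bd21 at ZT0 (SD, n = 3 each; log2FC −6.20, SE 0.19). At dusk LHY was up-regulated in both ecotypes, at 597.3 ± 70.0 CPM in S and 27.4 ± 3.02 CPM in LL Bd21, and 447.4 ± 24.1 CPM in S and 74.1 ± 11.2 CPM in LL Bd21-3 (SD, n = 3 each). The sign of LHY was thus opposite to that of Bradi1g72390 at ZT0, ZT16 and ZT24 in both ecotypes. At ZT20 all the values were positive, with 0.82 for LHY and 2.01 for Bradi1g72390 in Bd21 and 0.78 and 0.89 in the same order in Bd21-3. At ZT8 LHY was at 0.07 in Bd21 and −1.38 in Bd21-3, beside 1.75 and 1.93 for Bradi1g72390. Bradi1g60490 was opposite in sign to LHY at ZT0, ZT16 and ZT20 in both ecotypes and had the same sign at ZT24. Whether LHY acts on either gene was not tested.

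Of the genes that COR27 represses in Arabidopsis, TOC1 (Bradi3g48880) was never called, with log2FC of −1.44 in Bd21 and −1.13 in Bd21-3 at ZT16 and 1.42 and 1.18 at ZT24 (SE 0.12 but 0.14 for Bd21 at ZT24). PRR5 had 2 matches. Bradi4g24967 was up-regulated in 7 comparisons, such as ZT20 with 323.3 ± 47.2 CPM in S and 73.3 ± 17.1 CPM in LL Bd21, and 470.4 ± 72.0 CPM in S and 76.7 ± 5.26 CPM in LL Bd21-3 (SD, n = 3 each). Bradi4g36077 was down-regulated at ZT8 in both ecotypes (−3.13 in Bd21, −3.43 in Bd21-3) and up-regulated at ZT16 and ZT20 in Bd21 (2.11 and 3.53). GI (Bradi2g05226), which links the clock to flowering, was up-regulated at both dawns in both ecotypes (2.94 to 4.12) and down-regulated at midday (−2.52 in Bd21, −1.98 in Bd21-3). PRR7 also had 2 matches: Bradi1g65910 was up-regulated at ZT0, ZT20 and ZT24 in both ecotypes (1.98 to 3.64) and down-regulated at ZT8 (−2.82 in Bd21, −2.55 in Bd21-3). Bradi1g16490 was up-regulated at ZT0 (3.66 in Bd21, 4.08 in Bd21-3), and in Bd21 it was down-regulated at ZT8 (−1.70) and ZT16 (−1.77). The study regards the PRR7 label of Bradi1g16490 as a likely misannotation and, citing earlier work, takes the gene as the PRR3 ortholog. No gene of the table had PRR9 of that list as its best match, although the study shows a Brachypodium gene under the name PRR9.

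**Figure D4:**
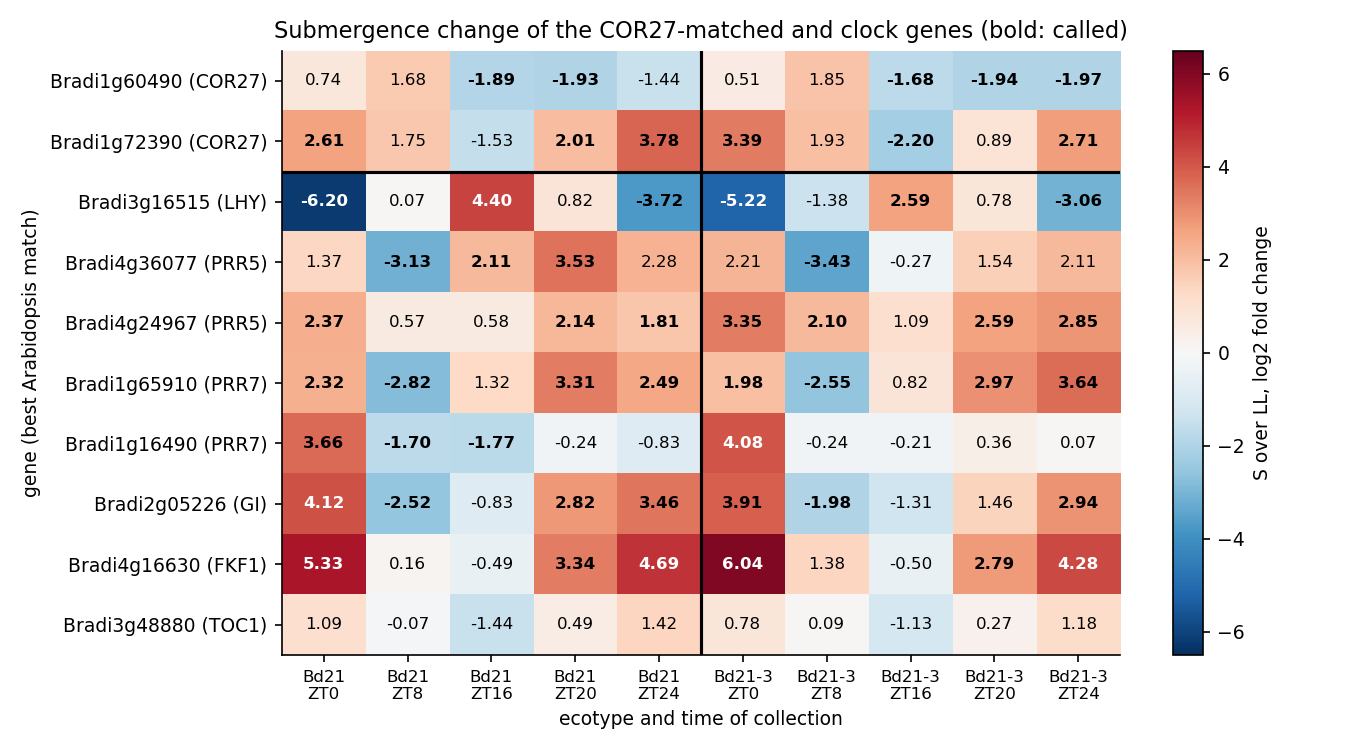
S over LL log2 fold change (color and printed value) of the COR27-matched genes (top) and of genes matched to LHY, PRR5, PRR7, GI, FKF1 and TOC1 (vertical axis), by ecotype and time of collection (horizontal axis); bold values are calls. Names are best Arabidopsis matches, and the study takes Bradi1g16490 as PRR3 rather than PRR7. At ZT24 Bradi1g72390 had 3.78 in Bd21 and 2.71 in Bd21-3, where LHY had −3.72 and −3.06 and Bradi1g60490 had −1.44 and −1.97.

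Of the light signaling list 20 genes were tested; 4 were up-regulated and 3 down-regulated at least once and 13 never, beside the shares of 9.12%, 11.2% and 80.0% of all genes, and the list's median ran from −0.84 to −0.26. The matches of COP1 (Bradi3g57667) and PHYB (Bradi1g64360), whose proteins meet COR27 in Arabidopsis, were among the 13. The photoreceptor CRY2 (Bradi3g49204) was up-regulated in 7 comparisons, with 902.2 ± 86.0 CPM in S and 245.7 ± 26.3 CPM in LL Bd21-3 at ZT20 (SD, n = 3 each). A match of its relative CRY1 (Bradi3g46590) was down-regulated in 5, with 34.3 ± 7.21 CPM in S and 198.8 ± 9.84 CPM in LL Bd21-3 at ZT0 (SD, n = 3 each). The other CRY1 match (Bradi5g11990) was never called. PIF5 (Bradi1g06670), a growth-promoting factor, was up-regulated in 4, at 1.57 to 1.76 on the log2 scale. A match of HY5 (Bradi3g07540) was up-regulated at ZT8 in Bd21 (1.89, SE 0.22).

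Of the cold acclimation list 23 genes were tested; 6 were up-regulated and 3 down-regulated at least once and 14 never, beside the same shares of all genes, with medians from 0.05 to 0.89. The stress zinc finger ZAT12 (Bradi1g03790) was up-regulated at ZT0, ZT8 and ZT16 in both ecotypes, most at ZT0 with 168.9 ± 56.4 CPM in S and 0.255 ± 0.221 CPM in LL Bd21-3 (SD, n = 3 each). A match of CBF1 (Bradi4g35650), of the family of cold response activators, was up-regulated in 5 comparisons, with 45.9 ± 3.36 CPM in S and 0.302 ± 0.0719 CPM in LL Bd21-3 at ZT0 (SD, n = 3 each). A match of CBF2 (Bradi2g60340) was up-regulated from ZT16 to ZT24 in Bd21-3 (2.19 to 3.36). In Bd21 its means were 1.29 to 4.31 CPM in S and 0.0802 to 2.96 CPM in LL, too low for a call. The Bd21 log2FC was 1.39 at ZT16, 1.82 at ZT20 (SE 0.34 each) and 1.18 at ZT24 (SE 0.39). Whether its change differed between the ecotypes is not reported here. A match of ICE1 (Bradi4g17460), the activator of the CBF genes in Arabidopsis, was down-regulated in 8 comparisons, all those of ZT8 to ZT24, at −3.40 to −1.89. The other match of ICE1 (Bradi2g59497), at a mean of 11.0 CPM over all libraries, was never called. Nor were further matches of ZAT12 (Bradi1g66330), CBF1 (Bradi2g60331) and CBF2 (Bradi3g51630), at means of 0.868, 0.466 and 0.271 CPM. In the second night, when Bradi1g72390 was at its zenith, ZAT12 (Bradi1g03790) averaged 12.4 ± 8.12 CPM in S and 0.760 ± 0.213 CPM in LL Bd21 at ZT20 (SD, n = 3 each). Its log2FC at ZT20 and ZT24 was 2.77 and 3.34 in Bd21, and 2.34 and 2.45 in Bd21-3. These values were past the size limit (SE 0.56, but 0.62 for Bd21 at ZT24). They were uncalled because the adjusted p stayed above its limit, and in all but Bd21 at ZT24 no group mean reached 15 CPM either.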

How the data were processed

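Reads were aligned to the JGI version 3 assembly with HISAT2 2.1.0, runs of 1 library were merged with SAMtools 1.12 and counted with HTSeq, per the labels and the methods of the study. The authors discarded libraries with poor alignment and deposited 1 table of CPM per gene and library from edgeR, a normalized signal whose columns sum to 843958 to 1243716. The table's columns of the authors' own log2 fold changes, FDR and group means were not used. Values were whole multiples of 1 read in each library (100% within 0.001), which gave reads for edgeR. Close paralogs may share reads, and how the counting treated them was not stated. Gene symbols are those of the table's best Arabidopsis match.

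Here log2(CPM + 1) of 24109 genes (at least 1 CPM in 3 libraries) was fitted with limma 3.58.1 (mean-variance trend) over all 30 groups, with Benjamini-Hochberg adjustment over genes within each comparison. Calls needed a log2FC of 1.5, an adjusted p below 5e-06 and a group mean of 15 CPM; ecotype differences in log2FC needed no mean. Pseudocount, filter, scaling, variance model, block, samples, tool (edgeR 4.0.16) and p limit were varied, and each library left out. A simpler form of the limma steps was run on simulated data, with 1 pair of groups and an adjusted p limit of 0.05. The fit over all 30 groups and the adjusted p and mean limits of the calls were thus not tested by simulation.

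The members and lists were chosen with earlier results of these data known. The genes named are the COR27 matches, the 5 genes with a symbol most like each (Pearson r over the group means, at least 15 CPM in 1 group), all matches of LHY, PRR5, TOC1, GI, PRR7 and PRR9, and up to 4 called light and cold genes by mean absolute log2FC. COP1, PHYB and the other HY5 match were added after their values were seen. Labels call replicates biological; pools shared a tank, so p-values measure the spread between pools. No pair of replicates agreed within sampling noise (chi-square per degree of freedom 2.69 or more).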

Additional observations from a re-analysis of the deposited data

Results flagged for a closer look

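The S over LL log2FC differed between collection times by limma's F test over the 5 ZTs. These times differ in time of day, in length of submergence and in tank, and the test does not separate them. The adjusted p was 7.4e-23 for Bradi1g60490 in Bd21 and 9.2e-24 in Bd21-3, with a positive log2FC at ZT0 and ZT8 and a negative one from ZT16 to ZT24 in both ecotypes. For Bradi1g72390 it was 5.3e-16 in Bd21 and 2.0e-18 in Bd21-3, with a negative log2FC at ZT16 and positive ones at the other 4 times.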

How the results depend on the processing

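No S over LL direction changed under any alternative. A pseudocount of 5 CPM, which shrinks low levels by construction, took all 5 calls of Bradi1g60490 below the size limit: −1.36 (ZT16) and −1.47 (ZT20) in Bd21, and −1.22 (ZT16), −1.46 (ZT20) and −1.5 (ZT24) in Bd21-3. Against NG, the dusk values in Bd21-3 were −1.37 for Bradi1g60490 and −1.20 for Bradi1g72390, uncalled, and 2.61 for Bradi1g72390 at ZT20, newly called. The Bd21 ZT24 value of Bradi1g60490 became a call at −1.51 with a pseudocount of 0.25 CPM and with median of ratios scaling, and at −1.5 in edgeR. That of Bradi1g72390 at ZT16 in Bd21 became one at −1.57 with median of ratios scaling and at −1.53 with an adjusted p limit of 0.05. Fits of only the groups compared (fewer libraries) kept the estimates and lost all 11 calls: −1.89, −1.93 (Bradi1g60490) and 2.61, 2.01, 3.78 (Bradi1g72390) in Bd21, and −1.68, −1.94, −1.97 and 3.39, −2.20, 2.71 in Bd21-3, with adjusted p from 5.9e-05 to 0.0045; they made 443 calls over the 10 comparisons, against 18347. edgeR made 18678. With 1 library left out, Bradi1g72390 in Bd21 ran from 2.44 to 2.75 at ZT0 (lost without S replicate 2) and from 1.71 to 2.43 at ZT20 (lost without LL replicate 3), and Bradi1g60490 at ZT24 in Bd21 from −1.62 to −1.24 (called without S replicate 3).

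Replicate numbers did not pair the libraries: deviations of same-numbered S and LL libraries correlated over 0.1 in 7 of 29 pairs (median −0.06). The replicate block left 155 of 156 COR27 results on their side of the limit; the ZT16 over ZT8 step of Bradi1g72390 in NG Bd21-3 stayed at 1.83 with an adjusted p of 6.6e-06. It made 18245 calls. With pseudocounts of 0.25 and 5 CPM, 24 of 60 values of the difference between the 2 genes moved by more than 1 SD. Quantile normalization moved the median of all genes by up to 0.129 on the log2 scale. Depth limits Bradi1g72390 in the dawn controls, where the lowest library held 6 reads.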
